A study of Mus musculus with 6 samples.

Results

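The genes described here are 10 members of the basic helix-loop-helix (bHLH) network that sets the activity of MyoD: the Id genes *Id1*, *Id2*, *Id3* and *Id4*, the E protein genes *Tcf3*, *Tcf4* and *Tcf12*, and the bHLH repressor genes *Twist1*, *Twist2* and *Msc*. They were taken by symbol from the 54525 gene rows of each count table, and all 10 were present. RNA-seq was performed on C2C12 cells, an established mouse myoblast line, in 2 groups of 3 samples: myoblasts at day 0 (D0) and myotubes after 5 days of differentiation (D5). Both groups were labelled WT and untreated. Myoblasts were kept in medium with fetal bovine serum and differentiated in medium with horse serum, so D0 and D5 differed in medium as well as in time, and these effects cannot be told apart. The labels number the samples but do not say whether they came from separately started cultures, so the p-values measure the spread between these samples only.

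MyoD and its relatives Myf5, myogenin and Myf6 bind DNA as dimers with an E protein, at a short sequence called an E-box. E proteins are broadly expressed bHLH factors, and *Tcf3* encodes the E2A proteins E12 and E47, *Tcf12* encodes HEB and *Tcf4* encodes E2-2. Id proteins have the helix-loop-helix but lack the basic stretch that contacts DNA, so they hold E proteins in dimers that cannot bind. Twist proteins and musculin (also called MyoR, encoded by *Msc*) do contact DNA and are known as repressors of myogenic bHLH activity. The symbols *Tcf3* and *Tcf4* are also used as older names of *Tcf7l1* and *Tcf7l2*, which are unrelated factors of the Wnt pathway. The identifiers in the files (ENSMUSG00000020167 and ENSMUSG00000053477) are those of E2A and E2-2.

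To place the members against the site that these dimers read, the E-box was looked for in promoters from RefSeq (GRCm38.p6), each running from 250 bases before to 50 bases after a transcript start. The RefSeq table held 7 of the 10 members, with no entry for *Id1*, *Tcf4* and *Msc*. The search used CANNTG, which covers every E-box and reads the same on both strands. The promoters of *Id2*, *Id3* and *Tcf3*, which fell between D0 and D5, are shown with that of *Myog*, the myogenic partner gene with the largest rise, all 5′ to 3′ on the strand of the gene. Capitals mark each CANNTG. They lie at chr12:25096043-25096342 on the minus strand (*Id2*), chr4:136143572-136143871 on the plus strand (*Id3*), chr10:80433586-80433885 on the minus strand (*Tcf3*) and chr1:134289754-134290053 on the plus strand (*Myog*).
Id2: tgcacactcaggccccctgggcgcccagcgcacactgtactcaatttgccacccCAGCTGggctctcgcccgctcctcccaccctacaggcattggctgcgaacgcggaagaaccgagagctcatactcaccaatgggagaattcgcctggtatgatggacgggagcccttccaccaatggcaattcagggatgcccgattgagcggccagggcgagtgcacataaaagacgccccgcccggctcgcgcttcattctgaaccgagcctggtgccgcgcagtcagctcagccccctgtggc
Id3: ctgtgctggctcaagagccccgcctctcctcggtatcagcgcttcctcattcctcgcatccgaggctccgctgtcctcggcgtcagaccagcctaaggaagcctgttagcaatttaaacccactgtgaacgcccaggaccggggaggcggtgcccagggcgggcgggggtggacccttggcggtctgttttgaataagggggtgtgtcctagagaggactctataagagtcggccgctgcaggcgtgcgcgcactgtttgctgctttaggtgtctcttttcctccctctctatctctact
Tcf3: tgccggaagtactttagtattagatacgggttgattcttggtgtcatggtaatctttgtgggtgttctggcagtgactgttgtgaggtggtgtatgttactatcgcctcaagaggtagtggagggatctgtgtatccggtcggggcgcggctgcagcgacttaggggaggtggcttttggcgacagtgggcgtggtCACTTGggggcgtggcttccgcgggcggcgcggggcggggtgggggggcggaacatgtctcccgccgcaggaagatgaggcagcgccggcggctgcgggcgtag
Myog: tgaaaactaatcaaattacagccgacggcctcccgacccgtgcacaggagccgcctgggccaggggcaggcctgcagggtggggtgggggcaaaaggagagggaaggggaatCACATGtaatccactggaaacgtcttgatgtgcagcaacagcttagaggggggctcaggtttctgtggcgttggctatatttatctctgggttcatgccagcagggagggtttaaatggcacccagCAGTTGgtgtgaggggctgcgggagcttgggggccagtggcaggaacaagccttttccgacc

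The *Id2* promoter held 1 E-box, CAGCTG, whose first base was at -196 from the start. The *Tcf3* promoter held CACTTG at -54. The *Myog* promoter held CACATG at -138 and CAGTTG at -12, while no CANNTG was present in this window of *Id3*, *Id4*, *Twist1* or *Twist2*. The *Id4* window ends at 48261165, before the gene start of 48261228 in GENCODE M21, so it does not cover that start. Each of the 3 *Tcf12* promoters in the table held at least 1. Among 32851 promoters of the same length, 72.3% held at least 1 CANNTG and 16.3% held CAGCTG, so a match is common and is a description of the sequence only.

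Of the 10 members, 8 passed the filter on low counts and 2 (*Id4* and *Twist1*) did not. With edgeR's quasi-likelihood test on TMM-normalized counts, adjusted by Benjamini-Hochberg over all 16290 genes tested at a threshold of 0.05, 6 members were lower and 2 were higher at D5. Across all genes tested, 40.8% were lower and 42.2% were higher, so a change past the threshold was itself common. Sizes and library values are therefore given below. The median log2 fold change of the 8 members was -1.19, beside 0.0022 for all genes tested.

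The 6 libraries held 36555048 to 40895840 counts on genes at D0 and 25449759 to 25811300 at D5. Myotube markers (*Myog*, *Mymk*, *Myh3*, *Ckm*, *Acta1*, *Tnnt3*) summed to 56.6 to 70.3 CPM (normalized counts scaled to a library of 1000000) at D0 and to 11923 to 12753 CPM at D5, and all 6 rose. Proliferation markers (*Mki67*, *Top2a*, *Ccnb1*, *Ccna2*, *Cdk1*) summed to 1737 to 1768 CPM at D0 and to 52.2 to 62.2 CPM at D5, and all 5 fell. Fibroblast markers (*Pdgfra*, *Dcn*, *Lum*, *Dpt*, *Pi16*) summed to 1.47 to 1.81 CPM at D0 and to 283 to 328 CPM at D5, and all 5 rose. *Dcn* made up most of the fibroblast sum at D5 (242 ± 19.1 CPM), and *Lum* was at 0 in every D0 library. The part of these shifts in the members' values was not tested. In bulk RNA, fewer cells of a type and less RNA per cell cannot be told apart.

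*Id1*, *Id2* and *Id3* all fell. *Id3* had the highest level of the Id genes in both groups, *Id2* fell most, and *Id1* fell least. These genes keep progenitor cells from differentiating in many tissues, and in cultured myoblasts they are known to be supported by serum and by bone morphogenetic proteins (BMPs). In each of the 3, every D5 library was below every D0 library. How many of all genes tested were apart in this way was not counted, so this is not read as particular to the Id genes.

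*Id2* (chromosome 12 from 25093799 to 25097140, minus strand) was at 67.8, 65.0 and 66.6 CPM in the D0 samples (replicates 1, 2 and 3, the order kept below) and at 12.4, 11.7 and 11.8 CPM in the D5 samples. All 3 myotube libraries lay close together and far under the myoblast libraries. The coefficient of variation was 2.12% at D0 and 3.09% at D5 (n = 3 each), and the change was -2.47 ± 0.051 (SE) in log2 units with an adjusted p of 1.1e-27 (edgeR). This left 18.0% of the D0 level, and 4.41% of all genes tested had a lower log2 fold change.

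*Id3* (chromosome 4 from 136143497 to 136145755, plus strand) was at 139, 143 and 141 CPM in the D0 libraries and at 32.1, 33.7 and 33.6 CPM in the D5 libraries. The mean fell from 141 ± 2.02 to 33.1 ± 0.897 CPM, a change of -2.09 ± 0.039 (SE) in log2 units with an adjusted p of 9e-29 (edgeR), or 23.6% of the D0 level. *Id1* (chromosome 2 from 152736251 to 152737410, plus strand) was at 36.7, 36.1 and 38.8 CPM at D0 and at 17.9, 18.0 and 16.3 CPM at D5. Its change was -1.10 ± 0.054 (SE) in log2 units with an adjusted p of 8.6e-18 (edgeR), leaving 46.8% of the D0 level.

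*Id4* (chromosome 13 from 48261228 to 48266026, plus strand) was close to undetected. Its counts were 7, 7 and 5 at D0 and 3, 2 and 0 at D5. Every D5 library was at or under a floor of 3 counts per library. The mean of 0.159 ± 0.0320 CPM at D0 was 1.32-fold above that floor. Here the D0 mean is taken as exact although it rests on few counts, so 1.32 is not a lower bound on a fall. When genes of low counts were also tested, its log2 fold change was -1.25 with an adjusted p of 0.169 (edgeR).

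**Figure D1:**
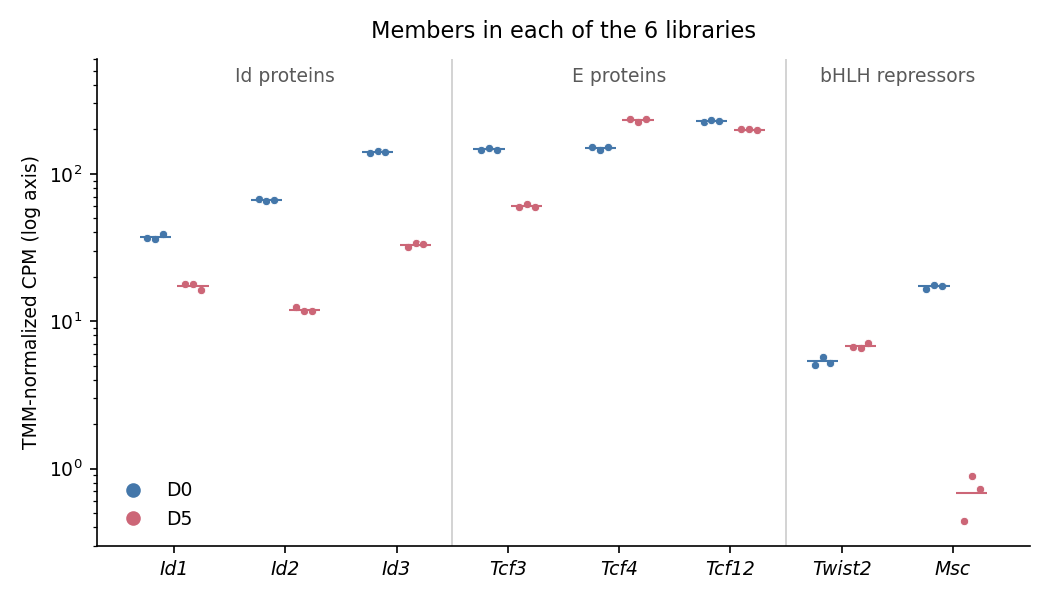
TMM-normalized CPM (log axis) of the 8 members that passed the filter, with 1 point per library (3 at D0 in blue, 3 at D5 in red) and a bar at each group's mean. After TMM normalization the groups do not overlap for any of the 8 genes. The share of all genes tested without overlap was not counted, and 42.2% were called higher and 40.8% lower. Lack of overlap is therefore not read as a trait of the members. Per 1000 spike-in counts, *Tcf4*, *Tcf12* and *Twist2* do overlap. *Msc* has the widest gap (17.2 against 0.684 CPM) and *Tcf12* the narrowest (229 against 200 CPM).

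The E protein genes moved apart. *Tcf3* fell, *Tcf12* fell slightly and *Tcf4* rose after TMM normalization. Neither the small fall of *Tcf12* nor the rise of *Tcf4* passed the threshold when the libraries were scaled to the ERCC spike-ins, as described below.

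*Tcf3* (chromosome 10 from 80409514 to 80433647, minus strand) was at 145, 150 and 146 CPM in the myoblasts and at 59.6, 62.4 and 59.8 CPM in the myotubes. The groups were far apart beside the spread within them. The mean fell from 147 ± 2.68 to 60.6 ± 1.56 CPM, a change of -1.28 ± 0.036 (SE) in log2 units with an adjusted p of 4.3e-24 (edgeR), which left 41.1% of the D0 level. Gene counts do not separate the E12 and E47 transcripts.

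*Tcf12* (chromosome 9 from 71842688 to 72111871, minus strand) was at 226, 232 and 228 CPM at D0 and at 200, 201 and 197 CPM at D5. Its change was -0.20 ± 0.032 (SE) in log2 units with an adjusted p of 1.8e-06 (edgeR), so 87.3% of the D0 level remained, and 41.4% of all genes tested had a lower log2 fold change. This shift was near the middle of all genes. *Tcf4* (chromosome 18 from 69343356 to 69689079, plus strand) was at 152, 146 and 153 CPM at D0 and at 235, 226 and 235 CPM at D5. Its change was 0.62 ± 0.033 (SE) in log2 units with an adjusted p of 4.8e-17 (edgeR), a 1.54-fold higher level.

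Levels of the members were compared with each other only in TPM, which divides counts by gene length and scales each library to a sum of 1000000. With the union of all annotated exons as the length, *Tcf3* held 64.2%, 64.7% and 64.0% of the summed E protein TPM in the myoblast libraries, and 40.7%, 42.1% and 41.0% in the myotube libraries. *Tcf4* went from 9.88%, 9.31% and 9.93% to 23.7%, 22.5% and 23.8%, and *Tcf12* from 26.0% in each D0 library to 35.6%, 35.4% and 35.2%. These are shares within a library, so they do not depend on how libraries are scaled to each other.

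The annotated exons of *Tcf4* and *Tcf12* add up to 27382 and 15529 bases, while the longest transcript is 8577 and 6299 bases. The size of each share therefore depends on the length used. With the longest transcript, the share of *Tcf3* was 48.1 ± 0.445% at D0 and 25.9 ± 0.613% at D5, that of *Tcf4* was 16.9 ± 0.539% and 34.1 ± 0.833%, and that of *Tcf12* was 35.0 ± 0.103% and 40.0 ± 0.324% (SD, n = 3 each). With either length, *Tcf3* had the highest E protein share at D0. At D5, *Tcf3* stayed the highest with exonic length and was the lowest with the longest transcript, where *Tcf12* was the highest.

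The summed level of the Id genes was 466, 477 and 490 TPM in the myoblast libraries and 122, 119 and 116 TPM in the myotube libraries, with exonic length. The summed level of the E protein genes was 191, 200 and 198 TPM at D0 and 115, 112 and 111 TPM at D5. The ratio of the Id sum to the E protein sum was thus 2.44, 2.39 and 2.47 in the myoblast libraries and 1.06, 1.07 and 1.04 in the myotube libraries. The ratio fell 2.30-fold, from 2.43 ± 0.0413 to 1.06 ± 0.0116 (SD, n = 3 each). With the longest transcript as length it fell 2.86-fold, from 1.70 ± 0.0192 to 0.593 ± 0.00738, so whether Id transcripts outnumbered E protein transcripts at D5 depends on the length, while the direction of the shift does not. These are ratios of RNA, and no protein was measured here.

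**Figure D2:**
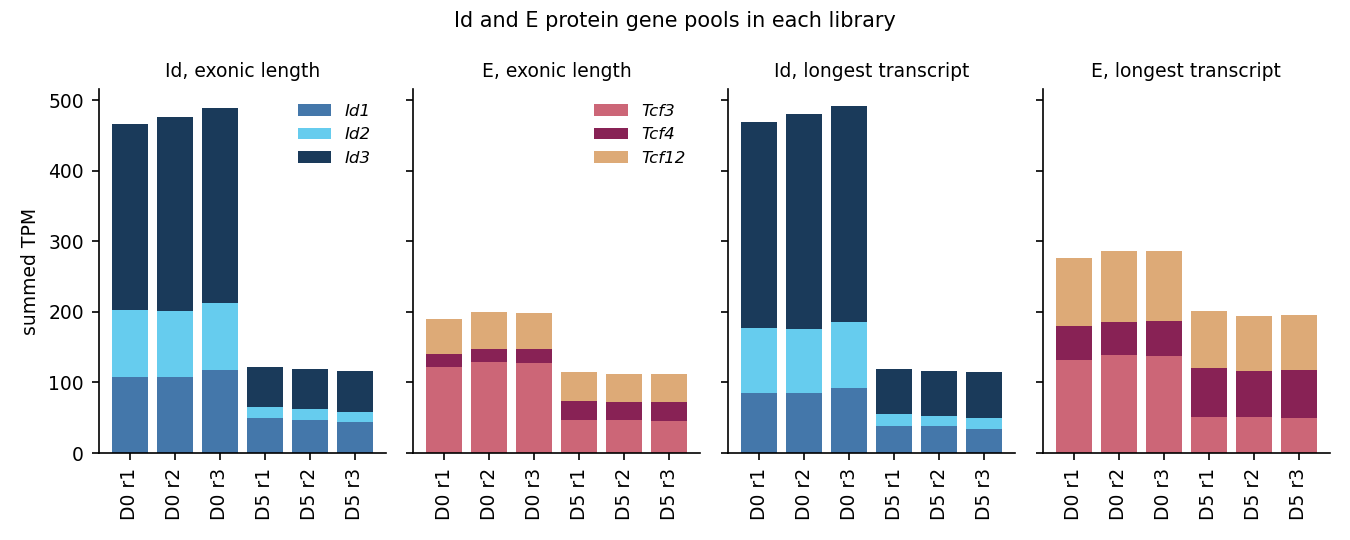
Stacked TPM of the Id genes and of the E protein genes in each library (r1 to r3 are replicates), with exonic length in the left pair of panels and with the longest transcript in the right pair; *Id4*, under 0.2 TPM, is not drawn. The Id stack falls from 466 to 490 TPM to 116 to 122 TPM with exonic length, and the *Tcf4* segment takes a larger part of the E protein stack at D5 with both lengths.

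Within the Id sum, *Id3* held 57.0 ± 0.850% at D0 and 48.2 ± 1.61% at D5, *Id2* held 19.8 ± 0.484% and 12.8 ± 0.480%, and *Id1* held 23.2 ± 0.682% and 39.0 ± 1.49% (exonic length). *Id3* had the largest share in both groups, and *Id1* gained share, having fallen less than the other Id genes. With exonic length, the order of TPM at D0 was *Id3* (272 ± 7.54), *Tcf3* (126 ± 3.42), *Id1* (111 ± 5.53), *Id2* (94.4 ± 1.69), *Tcf12* (51.0 ± 1.25), *Msc* (23.4 ± 1.01), *Tcf4* (19.0 ± 0.569) and *Twist2* (5.84 ± 0.431). No neighbours in this order overlapped in their 3 libraries. With the longest transcript, *Tcf12* (99.0 ± 2.33) stood above *Id2* (92.1 ± 1.74) and *Id1* (87.5 ± 4.39) at D0, which overlapped each other, and *Tcf4* (47.9 ± 1.46) stood above *Msc* (27.0 ± 1.14).

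At D5 the order was *Id3* (57.4 ± 0.503), *Id1* (46.6 ± 2.88), *Tcf3* (46.5 ± 0.785), *Tcf12* (39.9 ± 0.950), *Tcf4* (26.3 ± 1.00), *Id2* (15.2 ± 0.781), *Twist2* (6.68 ± 0.298) and *Msc* (0.831 ± 0.265) in TPM. This order used exonic length, with which *Id1* and *Tcf3* did not differ beyond their spread. By the longest transcript, *Tcf3* (50.9 ± 0.848) stood above *Id1* (37.2 ± 2.24) at D5. With the longest transcript, *Tcf12* (78.6 ± 1.67) and *Tcf4* (67.2 ± 2.41) stood above *Id3* (64.3 ± 0.717) at D5, and *Tcf4* and *Id3* overlapped.

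The repressor genes went different ways. *Msc* fell by more than any other member and was nearly lost from the myotube libraries. *Twist2* was slightly higher after TMM normalization and *Twist1* was not detectable above the floor at this depth.

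*Msc* (chromosome 1 from 14753346 to 14755992, minus strand) had 624, 741 and 701 counts in the myoblasts against 11, 22 and 18 in the myotubes. Normalized, this was 16.6, 17.6 and 17.4 CPM against 0.438, 0.892 and 0.723 CPM. The change was -4.65 ± 0.13 (SE) in log2 units with an adjusted p of 4e-24 (edgeR), so the level was 25.1-fold lower at D5, and 1.29% of all genes tested had a lower log2 fold change. The D5 libraries differed among themselves by more than for any other member tested, with a coefficient of variation of 33.6%, while the other 7 stayed at or under 6.66% in both groups. An annotated gene on the opposite strand, *Gm9947*, covers 21.2% of the exonic bases of *Msc*. Its counts were 158, 206 and 165 at D0 and 2, 3 and 6 at D5. As the strand setting of the counting is not given in the sources used here, reads from the pair cannot be told apart where they overlap.

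*Twist2* (chromosome 1 from 91801461 to 91848028, plus strand) was at 5.07, 5.75 and 5.24 CPM at D0 and at 6.72, 6.61 and 7.15 CPM at D5. Its change was 0.35 ± 0.097 (SE) in log2 units with an adjusted p of 0.00172 (edgeR), a 1.27-fold higher level, but the direction turned to -0.24 with scaling to the spike-ins (adjusted p = 0.748). Without single libraries, its log2 fold change lay between 0.30 and 0.40. The opposite-strand gene *Gm29100* covers 46.5% of its exonic bases, with 11 to 17 counts per library beside 163 to 242 for *Twist2*. *Twist1* (chromosome 12 from 33957671 to 33959829, plus strand) had 2, 3 and 2 counts at D0 and 0, 2 and 0 counts at D5. Both groups were at or under the floor of 3 counts, so no fold is given.

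Since the members belong to families, the annotated transcripts (GENCODE M21) were compared for shared sequence that could let reads fall on the wrong gene. No stretch of 50 bases was shared between any 2 members. Coding sequences were compared for every pair of Id genes, every pair of repressor genes, and *Tcf3* with *Tcf12*. The longest run shared in these pairs was one of 23 bases between *Twist1* and *Twist2*, shown in capitals as the whole run is identical.
Twist1 and Twist2: CTGCGCAAGATCATCCCCACGCT

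Within the Id genes, the longest shared coding run was 17 bases, between *Id1* and *Id4*. Between *Tcf3* and *Tcf12* it was 18 bases. No annotated gene on the same strand shared exonic bases with any member. Sequence shared with genes outside the 10 was not compared.

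Scaling changed 3 members. Each sample also carried 92 ERCC spike-ins, synthetic RNAs added to a sample, which took 0.726% to 0.859% of the counts at D0 and 1.20%, 0.720% and 2.09% in D5 replicates 1, 2 and 3. Scaled to these spike-ins, the median log2 fold change of all genes was -0.58, 5 members were lower and 0 were higher at D5. Over all genes, 23.0% were then lower and 11.1% higher, and of the genes called, 67.4% were lower instead of 49.2%.

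With spike-in scaling *Id1* was at -1.65 (adjusted p = 0.00846), *Id2* at -3.05 (6e-07), *Id3* at -2.65 (1.2e-05), *Tcf3* at -1.84 (0.00282) and *Msc* at -5.24 (1.3e-14) on the log2 scale (edgeR). These 5 falls held under every scaling tried. *Tcf12* was at -0.76 (standard error 0.52, adjusted p = 0.254) and *Tcf4* at 0.048 (standard error 0.51, adjusted p = 0.952). Relative to the median of all genes under that scaling, *Tcf4* was at 0.63, *Twist2* at 0.34 and *Tcf12* at -0.18.

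Per 1000 spike-in counts, *Tcf4* was at 17.9, 18.0 and 21.7 in the D0 libraries and at 18.8, 30.2 and 10.7 in the D5 libraries. *Tcf12* was at 26.8, 28.5 and 32.3 at D0 and at 16.0, 26.9 and 8.96 at D5. For both genes the D5 libraries spread widely and overlapped the D0 libraries. *Id2* was at 8.03, 8.01 and 9.43 at D0 and at 0.989, 1.56 and 0.538 at D5, with no overlap.

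**Figure D3:**
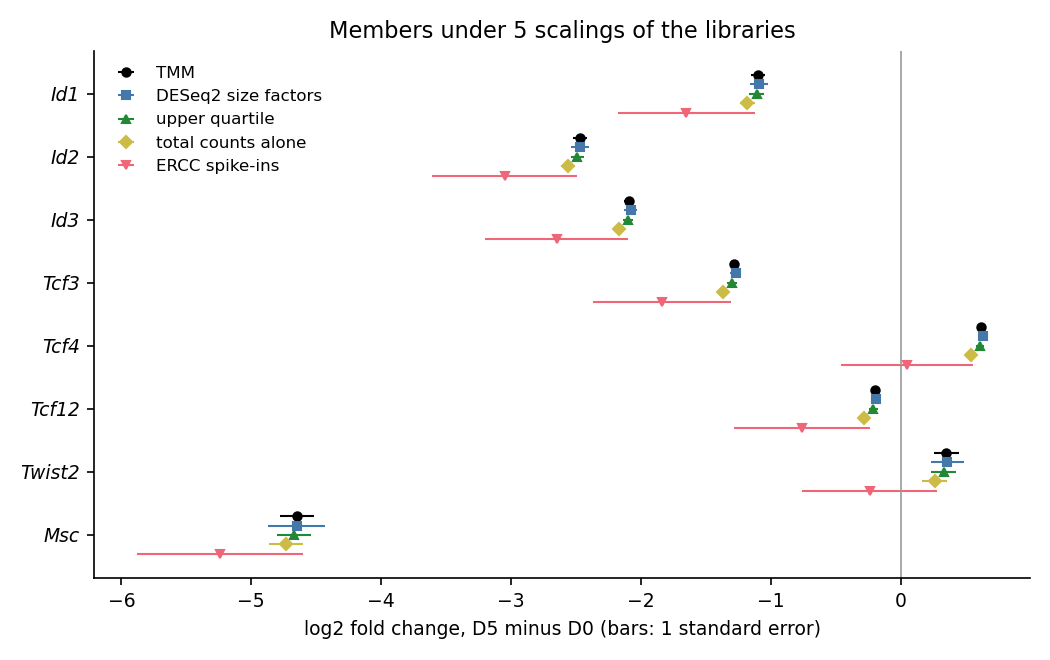
Log2 fold change (D5 minus D0) of the 8 members with bars of 1 standard error, under TMM, DESeq2 size factors, upper-quartile factors, total counts alone and ERCC spike-in scaling. With the spike-ins every member shifts to the left with wide bars; *Id1*, *Id2*, *Id3*, *Tcf3* and *Msc* stay below 0, *Tcf4* sits at 0.048 and *Twist2* crosses to -0.24.

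The myogenic bHLH genes, whose products pair with E proteins, split in direction. *Myod1* fell from 207 ± 6.24 to 126 ± 3.95 CPM and *Myf5* from 123 ± 3.02 to 24.6 ± 0.582 CPM. *Myog* rose from 2.76 ± 0.367 to 515 ± 3.24 CPM (log2 fold change 7.54, adjusted p = 4.6e-39, edgeR). *Myf6* rose from 0.508 ± 0.0969 to 1.70 ± 0.362 CPM, a call lost with spike-in scaling. Their summed level was 602, 583 and 606 TPM at D0 and 1346, 1301 and 1311 TPM at D5, of which *Myog* made up 1.07 ± 0.146% and 81.0 ± 0.412%. The E protein sum was lower at D5 while that of their myogenic partners was 2.21-fold higher (both in TPM with exonic length).

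Of 18 other genes known to restrain MyoD or its targets, 16 were tested, 10 fell and 6 rose (median log2 fold change -0.39). Of all genes tested, 40.8% fell and 42.2% rose. With spike-in scaling 6 of these inhibitors fell and 1 rose, beside 23% and 11.1% of all genes tested. *Hdac9*, encoding a class IIa histone deacetylase that holds down Mef2 activity, fell most, from 69.3 ± 0.976 to 6.34 ± 0.492 CPM. *Hey1*, a repressor downstream of Notch, fell from 15.1 ± 0.382 to 2.36 ± 0.592 CPM. *Bhlhe40*, a bHLH repressor, rose most of the 16 tested, from 39.1 ± 0.323 to 155 ± 3.72 CPM, and *Hdac4* rose from 40.9 ± 0.766 to 93.1 ± 4.38 CPM. With spike-in scaling *Hdac9*, *Hey1* and *Bhlhe40* (adjusted p = 0.0233, edgeR) stayed past the threshold, while *Hdac4* (adjusted p = 0.374, edgeR) did not. *Mdfi*, encoding the MyoD inhibitor I-mfa, did not pass the filter. Its counts were 0, 0 and 1 at D0 and 4, 13 and 9 at D5. The D5 mean of *Mdfi*, taken as exact, was 4.64-fold above a floor of 3 counts per library at D0. The fall seen for the Id genes and *Msc* was therefore not shared by every inhibitor.

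The genes listed for the route from BMP to Id also went both ways. Of 20, 17 were tested, 10 rose and 6 fell, with a median log2 fold change of 0.41. Across all genes tested, 42.2% rose and 40.8% fell, so movement both ways was common. With spike-in scaling 5 rose and 2 fell, beside 11.1% and 23% of all genes tested. *Bmp4*, a ligand, had 7, 1 and 14 counts at D0 and 1460, 1467 and 1464 counts at D5 (log2 fold change 8.29, adjusted p = 6.5e-31, edgeR). *Nog*, encoding the BMP antagonist noggin, fell most, from 26.0 ± 0.844 to 5.52 ± 0.0953 CPM, while *Grem1* and *Chrd*, which encode other antagonists, rose from 17.3 ± 0.236 to 174 ± 5.13 CPM and from 0.346 ± 0.0981 to 23.7 ± 0.829 CPM. The signal transducers *Smad1*, *Smad5* and *Smad9* were lower, with *Smad9*, the lowest in CPM, at 6.61 ± 0.230 CPM in myoblasts and 2.33 ± 0.0912 CPM in myotubes. With spike-in scaling the fall of *Smad9* stayed past the threshold (adjusted p = 0.00079, edgeR). Those of *Smad1* (adjusted p = 0.166, edgeR) and *Smad5* (adjusted p = 0.0852, edgeR) did not. *Smad4* was at -0.03 (adjusted p = 0.466, edgeR).

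Of 22 genes known as E-box targets of MyoD in muscle, 20 rose, 1 fell and 1 did not pass the threshold (median log2 fold change 4.38). Since such genes are known for their rise in myotubes, this count is not independent evidence of direction. *Tnni1*, encoding slow troponin I, rose most, from 1.26 ± 0.217 to 1708 ± 101 CPM. *Cdh15*, encoding M-cadherin, fell from 363 ± 1.24 to 237 ± 5.02 CPM, and *Rapsn* was at 97.9 ± 3.00 and 102 ± 1.94 CPM (adjusted p = 0.13, edgeR). Over all genes tested, 42.2% rose and 40.8% fell. With spike-in scaling 14 of the targets rose and 0 fell, beside 11.1% and 23% of all genes tested.

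**Figure D4:**
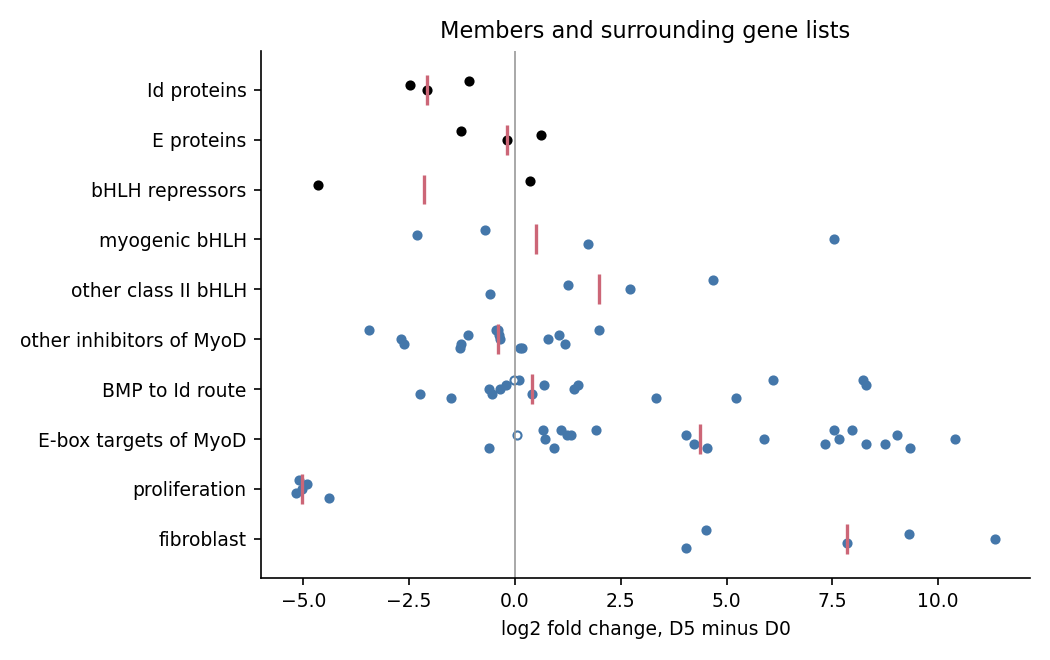
Log2 fold change (D5 minus D0, TMM) of each tested gene in 10 lists, with filled points past the threshold, open points not, and a red bar at each list's median. The Id genes lie between -2.47 and -1.10, apart from the E-box targets with a median of 4.38, while the other inhibitors of MyoD spread to both sides of 0.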

How the data were processed

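RNA-seq of C2C12 cells at D0 and D5 (3 libraries each) was available as one table per sample. The authors deposited raw read counts per gene, made with featureCounts on GRCm38 (mm10). The labels name Tophat2 as the aligner and the paper names HISAT2, and which of them made the counts is not settled here. The strand setting, the annotation release and the handling of multi-mapping reads are not given in the sources used here. The submitters' processing notes also list DESeq2 1.6.3.

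From these counts, the 92 spike-ins and the unnamed last line, which held the column sum (100% of genes plus spike-ins), were left out. Genes were filtered with filterByExpr (edgeR 4.0.16, R 4.3.3, minimum count 10) and tested with edgeR's quasi-likelihood test (TMM, Benjamini-Hochberg, threshold 0.05), D5 against D0 without further terms. TPM used lengths from GENCODE M21, whose identifiers matched 99.8% of gene rows. Replicates differed by more than counting noise (chi-square per degree of freedom 2.28 to 3.71), so none was merged. Depth was 25449759 to 40895840 gene counts per library. On simulated data for D5 against D0 (15943 genes), edgeR recovered 88.7% of 97 changes of 2-fold and 74.5% of 98 changes of 1.5-fold. Far fewer genes were changed than were called in the data, with rises and falls balanced. The simulation therefore does not bear on the choice of scaling.

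Alternatives were DESeq2 1.42.0, upper-quartile factors, total counts alone, spike-in scaling, no filter, at least 10 counts in every library, single libraries left out and a replicate block. The members and gene lists were chosen with earlier results of these data known. Genes named besides the members are the largest rise and fall of each list whose mean count reached 10 in either group, and those needed to describe a group. Endothelial, leukocyte, adipocyte and osteoblast marker lists were also examined. Promoters came from RefSeq (GRCm38.p6).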

Additional observations from a re-analysis of the deposited data

How the results depend on the processing

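Over 13 alternatives, 101 of 104 log2 fold changes of the members kept their direction and their side of the threshold. The exceptions arose with scaling to the ERCC spike-ins, where *Twist2* turned to -0.24, *Tcf4* went to 0.048 and *Tcf12* to -0.76, so that 0 members were higher at D5, and 5560 genes in all passed the threshold instead of 13510. The spike-in shares of the D5 libraries differed among themselves, and the cause was not tested. With the longest transcript as length, the Id to E protein ratio fell 2.86-fold instead of 2.30-fold. *Tcf4* and *Tcf12* change most between these lengths. *Id2*, *Id3* and *Tcf3* also change, and the parts of the genes were not separated. Leaving out single libraries gave 6 members lower and 2 higher each time, 13236 to 13599 genes past the threshold and a 2.28-fold to 2.32-fold fall of the ratio. With the replicate number as a block, 6 members were lower, 2 were higher and 13558 genes passed. Whether the numbers pair the samples was not settled. Deviations of same-numbered samples correlated at 0.0223, 0.123 and 0.057, and those of differently numbered samples at -0.0803 to 0.0231. Correlations this small cannot decide it. Without a filter on low counts, *Id4* and *Twist1* had adjusted p-values of 0.169 and 0.482 (edgeR). Depth limits both genes, as well as *Msc* at D5.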

Other observations

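Outside the members and the myogenic factors, few tissue-specific (class II) bHLH genes, whose products also dimerize with E proteins, were detected. Of 27 listed, 21 had at most 3 counts in every library, 16 of them with 0 counts throughout, and 4 passed the filter. *Scx*, encoding scleraxis, a tendon factor, had the highest CPM of these, without division by gene length. It rose from 88.2 ± 0.924 to 212 ± 4.92 CPM (log2 fold change 1.26, adjusted p = 7.6e-25, edgeR). *Tal2* rose from 0.229 ± 0.175 to 1.57 ± 0.0892 CPM, and *Atoh8* fell from 15.8 ± 1.85 to 10.5 ± 0.700 CPM. *Tcf23* had 1, 1 and 0 counts at D0 and 12, 11 and 16 counts at D5. Its D5 mean, taken as exact, was 6.94-fold above a floor of 3 counts per library at D0. With spike-in scaling *Tal2* and *Tcf23* stayed past the threshold, while *Scx* (adjusted p = 0.294, edgeR) and *Atoh8* (adjusted p = 0.0608, edgeR) did not. *Scx* and *Tal2* were chosen after their values were seen.

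Markers of other cell types were mostly near 0. Adipocyte markers summed to at most 0.285 CPM in any library, with 4 of 5 at or under 3 counts throughout. Endothelial markers summed to 3.31 to 3.59 CPM at D0 and 0.517 to 0.884 CPM at D5, with *Kdr* the highest at D0, which fell from 2.50 ± 0.274 to 0.214 ± 0.0251 CPM. Leukocyte markers summed to 3.16 to 3.39 and 1.89 to 2.64 CPM, nearly all from *Cd68*, while *Ptprc* was at 0 in every D0 library and *Adgre1* in all 6. Osteoblast markers summed to 109 to 114 and 41.4 to 43.1 CPM, nearly all from *Runx2*, with *Ibsp* at 0 in all 6 libraries. Of the myoblast markers, *Myod1*, *Myf5*, *Pax7* and *Cdh15* fell and *Des* rose. With spike-in scaling the fall of *Cdh15* (adjusted p = 0.0611, edgeR) and the rise of *Des* (adjusted p = 0.831, edgeR) were no longer past the threshold.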
